A study of Luscinia megarhynchos and Luscinia luscinia with 4 samples.

Results

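CPEB1, AGO2 and LARP4 are genes for proteins that bind RNA, and paralogous sequences of all 3 were annotated on the germline-restricted chromosome (GRC) of nightingales. The members described here are the rows of the deposited expression table that carry 1 of these 3 gene symbols, each protein identifier of the collared flycatcher annotation kept as its own row. There were 7 such rows of 799 in all, with 2 for CPEB1, 3 for AGO2 and 2 for LARP4. The mRNA came from 4 libraries, each from a different wild adult bird: an ovary and a testis of the common nightingale (*Luscinia megarhynchos*) and an ovary and a testis of the thrush nightingale (*L. luscinia*). The labels give no treatment, and each ovary came from a female and each testis from a male, so tissue, sex and bird cannot be told apart within a species. Each combination of species and tissue is a single library without replicates, so no test between birds was made and every comparison sets 1 library beside another.

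The GRC is an extra chromosome of songbirds that is carried by germ cells and lost from somatic cells, and it holds copies of genes from the ordinary chromosomes (A chromosomes). Growing oocytes store mRNA that is translated later, so much of their gene regulation acts on RNA through its poly(A) tail and its binding proteins. CPEB1 binds the cytoplasmic polyadenylation element in the 3′ untranslated region of such stored mRNAs and governs whether their poly(A) tails are lengthened and translated. AGO2 is an Argonaute protein that is guided by small RNAs to matching mRNAs and in vertebrates can cut them. LARP4, a La-related protein, binds poly(A) and the poly(A)-binding protein and protects mRNA from decay in human cells.

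The GRC copies resemble the A-chromosomal genes, so the specificity of a measurement rests on the bases at which they differ. The sources used here hold sequence for 1 of the 3 genes, the PCR primers for CPEB1, which are shown because the first pair was designed to amplify the GRC copy alone and the second lies in a stretch that both copies share and gives products of different length. The last 5 bases at the 3′ end of each primer, from which the polymerase extends, are in capitals, and every primer is written 5′ to 3′.
CPEB1_div_F: agtacgagaaccccatctATTCT
CPEB1_div_R: caaaatgacgaaaagcatcaatCAATT
CPEB1_con_F: tccggaaggccccttcaGTATT
CPEB1_con_R: agatgcaggttgcttcattcACAGC
The GRC-specific primers are 23 and 27 bases long with a GC content of 43.5% and 29.6%, and the shared primers are 22 and 25 bases long with a GC content of 54.5% and 48%. No run longer than 5 bases was common to any 2 of the 4 primers on either strand. The RNA libraries were not made with these primers. Their reads were assigned to the GRC or to the A chromosomes by unique alignment, and reads that matched both copies equally well were left out. The study also warns that mRNA of the A chromosomes could align wrongly to the GRC. A value above 0, above all one that may rest on few reads, carries that limit, and its part was not tested.

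The table gives FPKM, by name fragments scaled to sequence length and to the reads of the library. Values as low as 5.8e-06 FPKM in the *L. megarhynchos* ovary are lower than 1 read could give at plausible coding lengths and depths. A further scaling by row may thus be present, which would enter ranks and folds between species. It is not described in the sources used here, and its part was not tested. The study's notes name the gene's length on the GRC as the length used, and advise against comparing FPKM between libraries because the share of cells that carry the GRC is not known. Every fold between libraries given here, between tissues and between species, carries that limit, and its part in the values was not tested. The table held 366 rows above 0 in at least 1 library, and from 135 to 198 rows above 0 in a single library. Its 769 symbols are more than the genes the study counted on the GRC. The study counted a gene only if a minimum share of its coding region was found, to limit misassigned short sequences. The columns used here do not mark which rows met that limit, so ranks and shares are not restricted to those genes. The FPKM of a library summed to 505.9 in the *L. megarhynchos* ovary, 151.6 in its testis, 124.3 in the *L. luscinia* ovary and 244.2 in its testis. Of the 7 member rows, 6 were above 0 in at least 1 library, and both LARP4 rows were above 0 in all 4. In whole gonads, fewer germ cells and less RNA per germ cell cannot be told apart. A row at 0 may be a sequence absent from the GRC of that species, a sequence missing from the assembly or a sequence with no read. Which of these holds for a given row was not tested. The table gives no sequence length, so levels are ranked within a library and are not compared between genes as amounts of RNA. The identifiers of a symbol are flycatcher coding sequences. The study merged overlapping alignments on the GRC and gave each region to the coding sequence that matched it best. The rows of a symbol thus hold different GRC regions assigned to the same gene, and they are not independent measurements of it. The labelled tissues could not be checked with marker genes, because the rows are GRC copies and not the A-chromosomal genes. None of the 32 oocyte, ovarian somatic or testicular somatic genes listed has a row. Of the spermatogenic genes listed, DMRT1 and SYCP1 were above 0, both higher in the ovary in each species, and SPAG6 was at 0 throughout.

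CPEB1 was listed above 0 in both ovaries and at 0 in both testes. Its main row, XP_005051706.1, stood at 22.9 FPKM in the *L. megarhynchos* ovary, 0 in the testis of that species, 11.8 FPKM in the *L. luscinia* ovary and 0 in the testis. Both ovary values lie near the top of their libraries and the testes hold no value to set beside them. The row ranked 5 of 198 in the *L. megarhynchos* ovary, where ALG13 at 27.2 FPKM stood just above it and FBXO11 at 19.2 FPKM just below. It ranked 5 of 140 in the *L. luscinia* ovary, between SCX at 12.7 FPKM and LOC101813248 at 4.12 FPKM. It made up 4.54% of the summed FPKM of the first ovary and 9.49% of the second. Its FPKM was 1361 and 565 times the median of the rows above 0 in the same library. Those medians were low, at 0.0169 and 0.0209 FPKM. The rows are of unknown length, so these folds are not ratios of RNA amounts.

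The other CPEB1 row, XP_005051707.1, had the same pattern at a lower level. It was listed at 0.196 FPKM in the *L. megarhynchos* ovary, 0 in its testis, 0.0726 FPKM in the *L. luscinia* ovary and 0 in its testis. It ranked 45 of 198 and 50 of 140 in the ovaries. Both identifiers were thus above 0 in the same libraries, but as regions assigned to the same gene they are not independent observations of it.

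The share of rows that were above 0 in the ovary and at 0 in the testis was 31.5% (84 of 267 rows above 0 in either library) in *L. megarhynchos* and 25% (45 of 180) in *L. luscinia*, so a CPEB1 row with that state in a single species was not unusual. Being above 0 in both ovaries and neither testis was met by 12 of the 366 rows, or 3.28%, and both CPEB1 rows were among them. Only the 63 rows above 0 in both ovaries could meet it, and the 12 rows are a larger share of those. Ranked by the sum of the ovary values, IGF2, an insulin-like growth factor, ranked 1 with 134.9 and 2.11 FPKM, CPEB1 XP_005051706.1 ranked 2, and DMRT1, a transcription factor of the gonad, ranked 3 with 0.267 and 0.436 FPKM. CPEB1 XP_005051707.1 ranked 7, just above ELAVL4, another RNA-binding protein, at 0.160 and 0.0877 FPKM. No fold is given for CPEB1 between ovary and testis because the testes are listed at 0.

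**Figure D1:**
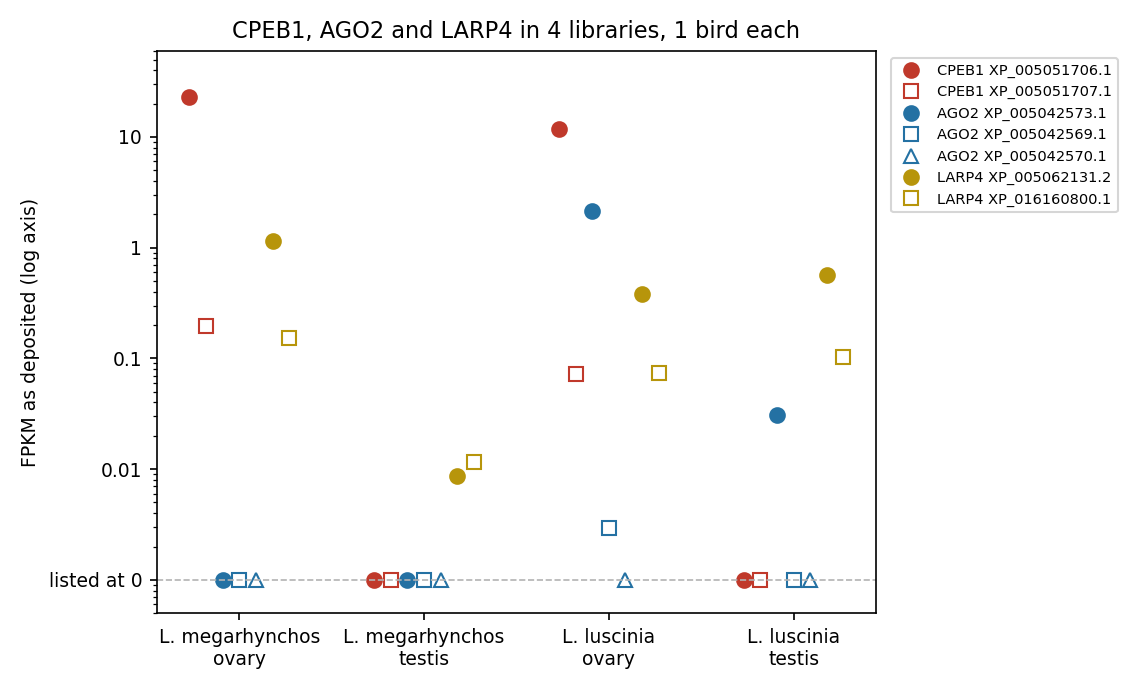
FPKM of the 7 member rows (vertical log axis, with rows listed at 0 on the dashed line) in each of the 4 libraries, 1 bird each; colours mark the gene and filled symbols the identifier with the highest FPKM of that gene. CPEB1 stands at 22.9 and 11.8 FPKM in the ovaries and at 0 in the testes, AGO2 is above 0 only in the *L. luscinia* libraries, and LARP4 is above 0 in all 4.

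AGO2 was listed at 0 in both libraries of *L. megarhynchos* for all 3 identifiers. In *L. luscinia*, XP_005042573.1 stood at 2.16 FPKM in the ovary and 0.0309 FPKM in the testis, so that the ovary was 70.0-fold higher. It ranked 10 of 140 rows in that ovary, between IGF1R at 2.30 FPKM and IGF2 at 2.11 FPKM, and 69 of 135 in the testis, close to the median row of 0.0319 FPKM. It made up 1.74% of the summed FPKM of the ovary and 0.0126% of that of the testis. XP_005042569.1 was listed at 0.00296 FPKM in the *L. luscinia* ovary and 0 in the testis, and XP_005042570.1 at 0 in all 4 libraries.

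Depth bears on the AGO2 difference, because a row's FPKM in a library is a whole multiple of what 1 read is worth. The ratio of ovary to testis FPKM in *L. luscinia* could be written as a ratio of whole reads for 93 of 95 rows above 0 in both libraries (97.9%) once the testis library was taken as 1.36 times as deep as the ovary library. A ratio counted as whole when its smaller term was at most 60 reads and it lay within a relative tolerance set by the rounding of the values, which was 4.16e-07 or less for the members and up to 8.16e-05 for the lowest rows. For AGO2 XP_005042573.1 the fewest reads that give its values are 154 in the ovary and 3 in the testis. At those counts the exact (Clopper-Pearson) 95% interval of the ovary-to-testis ratio runs from 23.5 to 343.2, which covers counting error only and not the difference between birds. Reads in any common multiple of these counts are also possible and would narrow the interval. The difference ranked 7 from the top among the 95 rows, whose median ovary minus testis difference was -0.55 on the log2 scale.

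A row at 0 in both *L. megarhynchos* libraries and above 0 in at least 1 *L. luscinia* library was found for 99 of 366 rows (27%), and a row above 0 in both *L. luscinia* libraries for 43 (11.7%). Of the AGO2 rows, 2 were in the first set and XP_005042573.1 was also in the second. The pattern therefore did not set AGO2 apart by itself.

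Most of the rows next to AGO2 in the flycatcher annotation had the same pattern. Protein identifiers were placed in the order of the flycatcher coding sequences given in the table, and rows within 30 coding sequences of an AGO2 identifier were taken as neighbours, a window chosen after seeing the data. There were 21 neighbouring rows of 15 genes. Of these, 17 were at 0 in both *L. megarhynchos* libraries, as were 532 of all 799 rows (66.6%), and 15 rows of 10 genes were also above 0 in *L. luscinia*, as were 99 of all 799 (12.4%). Within 10 coding sequences the count was 8 of 11 rows and within 60 it was 15 of 24.

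CHRAC1, a histone-fold subunit of a chromatin remodelling complex, was the next coding sequence to AGO2 and stood at 3.85 FPKM in the *L. luscinia* ovary and 0.535 FPKM in the testis. TRAPPC9, a subunit of a vesicle trafficking complex, was 2 coding sequences away at 0.0941 and 0.0446 FPKM. The focal adhesion kinase gene PTK2 held 6 rows, of which the highest stood at 0.102 and 0.0903 FPKM. The phosphatase gene PTP4A3, up to 26 coding sequences away, held 2 rows, at 0.553 and 0.363 FPKM and at 1.07 and 0.510 FPKM. AGO2 XP_005042573.1 was thus lower than CHRAC1 and higher than the other neighbours in the *L. luscinia* ovary, and was below 8 neighbouring rows in the testis, from LOC101821714 at 1.17 FPKM to COL22A1 at 0.0346 FPKM. The 4 neighbouring rows above 0 in *L. megarhynchos* were LOC101821516, LOC101821714, LOC107603352 and LOC101816049, the last at 0.0282 FPKM in the ovary and 0.306 FPKM in the testis.

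**Figure D2:**
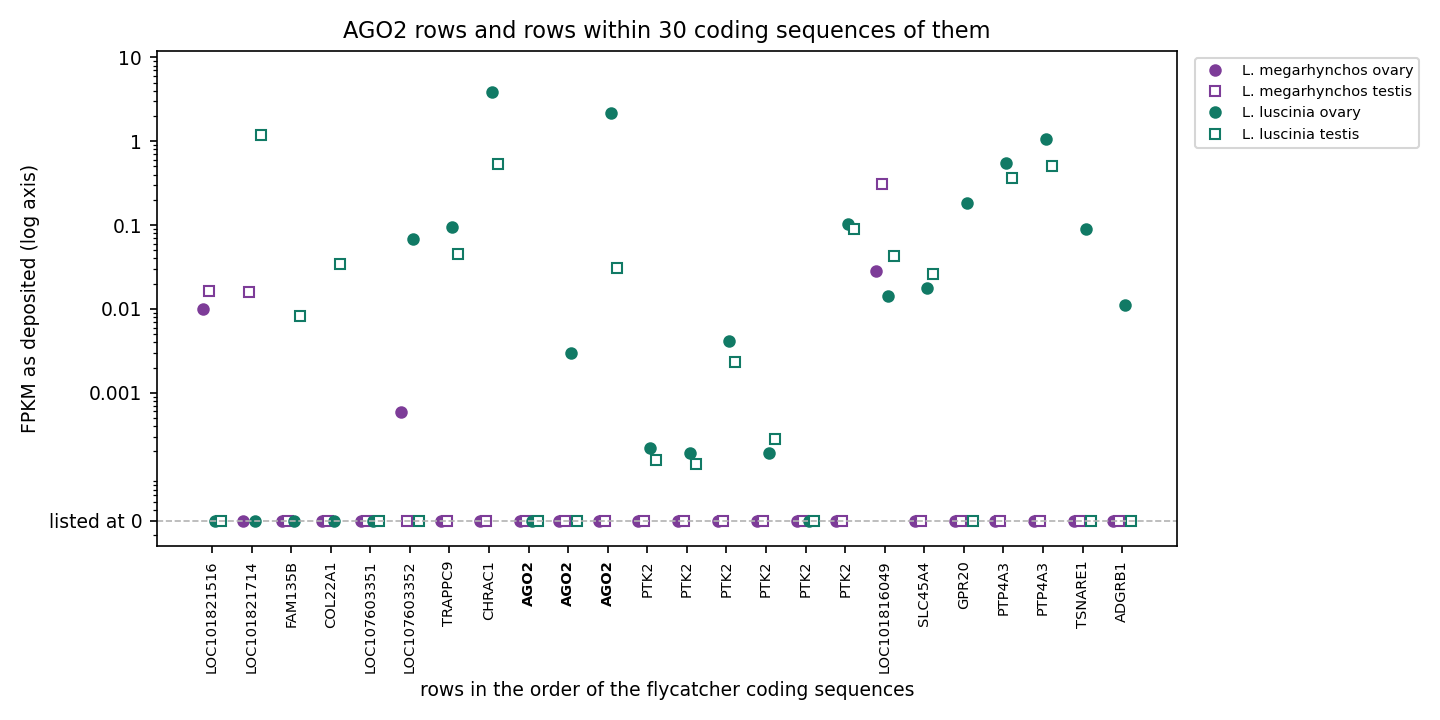
FPKM (vertical log axis, with rows listed at 0 on the dashed line) of the 3 AGO2 rows and the 21 rows within 30 coding sequences of them, in the order of the flycatcher coding sequences; purple marks *L. megarhynchos*, green *L. luscinia*, filled circles ovary and open squares testis. The purple symbols lie on the dashed line for AGO2 and for 17 of the neighbours.

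LARP4 was the member gene found in every library. XP_005062131.2 stood at 1.15 FPKM in the *L. megarhynchos* ovary, 0.00874 FPKM in its testis, 0.384 FPKM in the *L. luscinia* ovary and 0.563 FPKM in its testis. The *L. megarhynchos* testis is far below the other 3 libraries, and the rank of the row went from 20 of 198 in the ovary to 119 of 183 in the testis, against 27 of 140 and 30 of 135 in *L. luscinia*. XP_016160800.1 stood at 0.154, 0.0117, 0.0740 and 0.103 FPKM in the same order of libraries and ranked 52, 114, 48 and 46. Its lowest library was the same, and the highest and lowest of the other 3 differed by 2.08-fold.

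In *L. megarhynchos* the ovary was 132-fold higher than the testis for XP_005062131.2 and 13.2-fold higher for XP_016160800.1. The fewest reads that give these values are 215 in the ovary and 1 in the testis for the first row, with an interval of 23.4 to 5240 for the ratio, and 43 and 2 for the second, with an interval of 3.44 to 112.5. The testis library was 0.614 times as deep as the ovary library by the same reckoning, which gave whole reads for 108 of 114 rows (94.7%) at a tolerance of 4.58e-07 or less for the members and up to 7.13e-05 for the lowest rows. Both intervals stay above 1, and the testis values may rest on a few reads. Among the 114 rows above 0 in both libraries the LARP4 rows ranked 6 and 12 from the top, while the median ovary minus testis difference was -0.70 on the log2 scale. That median is a fold of 0.614, which is the value that equal reads in the 2 libraries give.

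In *L. luscinia* the testis was the higher library for LARP4, by 1.47-fold for XP_005062131.2 and 1.40-fold for XP_016160800.1. The first ratio reduces to 1 read in the ovary to 2 in the testis, so that the table fixes little about the counts behind it. At those counts the interval of the testis-to-ovary ratio runs from 0.0763 to 86.5. They would make 1 ovary read worth 0.384 FPKM, against at most 0.00352 FPKM for XP_016160800.1. The lengths are not given, but the counts may thus be much higher, which would narrow the interval and might exclude 1. The second reduces to 21 reads to 40, with an interval of 0.804 to 2.49. Both intervals include 1, so a difference between these 2 libraries was not detectable at the fewest reads. The rows ranked 47 and 45 from the top of 95, and XP_005062131.2 was level with the median row of the comparison. When each library was divided by its summed FPKM or by its median over the rows above 0 in both libraries, both rows were higher in the ovary instead, and with each library's own median row they were higher there by 0.060 and 0.13 on the log2 scale.

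Both LARP4 rows therefore stood higher in the ovary in *L. megarhynchos* and higher in the testis, as deposited, in *L. luscinia*. The same order was found in 12 of the 41 rows above 0 in all 4 libraries (29.3%), and the opposite order in 4 (9.76%). The LARP4 rows are part of the first number.

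**Figure D3:**
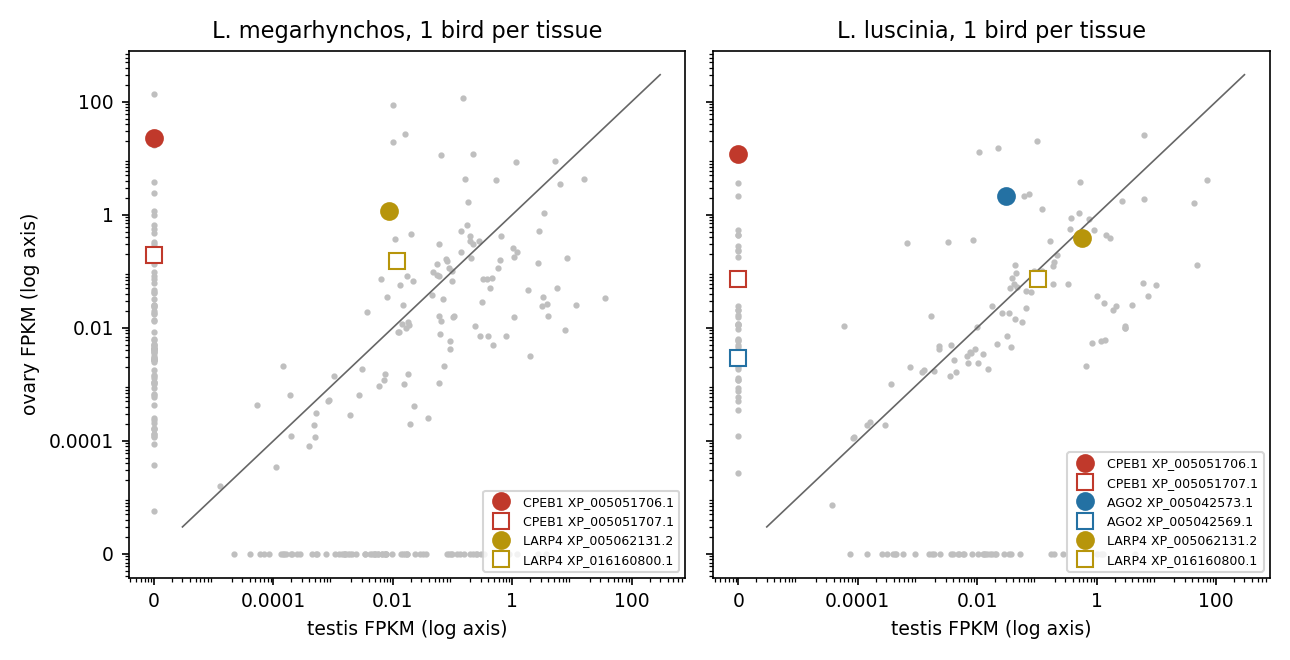
Ovary FPKM against testis FPKM (log axes, with rows listed at 0 placed on the position marked 0) for every row above 0 in at least 1 of the 2 libraries, *L. megarhynchos* on the left and *L. luscinia* on the right; grey points are all rows, coloured symbols the members, and the line marks equal values. The LARP4 rows lie 132-fold and 13.2-fold to the ovary side in *L. megarhynchos* and close to the line in *L. luscinia*, where AGO2 lies 70.0-fold to the ovary side.

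A rule of 4-fold on log2(FPKM + 0.01) was used to count rows across the table. In *L. megarhynchos* it was met towards the ovary by 42 of 267 rows (15.7%) and towards the testis by 54 (20.2%). All 4 member rows above 0 there, of CPEB1 and LARP4, were on the ovary side. In *L. luscinia* it was met towards the ovary by 28 of 180 rows (15.6%) and towards the testis by 30 (16.7%). There 3 of 6 member rows were on the ovary side, both rows of CPEB1 and AGO2 XP_005042573.1, and none was on the testis side. With a pseudocount of 0.1 in place of 0.01, CPEB1 XP_005051706.1, LARP4 XP_005062131.2 and AGO2 XP_005042573.1 still met the rule in the comparisons between tissues where they had met it. CPEB1 XP_005051707.1 and LARP4 XP_016160800.1 did not. With a pseudocount of 1 only CPEB1 XP_005051706.1 met it, at log2 differences of 4.58 and 3.68, against 1.09 for LARP4 XP_005062131.2 and 1.62 for AGO2 XP_005042573.1. The share of members was above that of all rows in both species, but identifiers of a gene are not independent and the genes were chosen with earlier results of these data known.

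Between the ovaries, the values of CPEB1 and LARP4 were higher in *L. megarhynchos*. The *L. megarhynchos* minus *L. luscinia* difference of log2 FPKM was 0.96 for CPEB1 XP_005051706.1, 1.43 for CPEB1 XP_005051707.1, 1.59 for LARP4 XP_005062131.2 and 1.06 for LARP4 XP_016160800.1. Over the 63 rows above 0 in both ovaries, the median of the row-by-row differences was 0.96 on the log2 scale, a shift of 1.95-fold. The main CPEB1 row matched that shift to 2 decimals, and the other 3 rows were above it by less than 1 on the log2 scale. When the libraries were divided by their summed FPKM, all 4 rows were higher in *L. luscinia* instead. The median FPKM of the 63 rows in each ovary is a different measure from the median of their differences. When the libraries were divided by that median FPKM, CPEB1 XP_005051706.1 and LARP4 XP_016160800.1 were higher in *L. luscinia*. With each library's own median row all 4 stayed higher in *L. megarhynchos*. The 4-fold rule was met towards *L. luscinia* by 28 of 275 rows (10.2%), among them AGO2 XP_005042573.1, and towards *L. megarhynchos* by 59 (21.5%), none of them a member.

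Between the testes, LARP4 was 64.4-fold higher in *L. luscinia* for XP_005062131.2 and 8.85-fold higher for XP_016160800.1. The *L. megarhynchos* testis values of these rows can rest on as few as 1 and 2 reads, and no interval was computed for folds between species. Over the 59 rows above 0 in both testes, the median of the row-by-row *L. megarhynchos* minus *L. luscinia* differences was 0.07 on the log2 scale. The LARP4 rows ranked 57 and 49 of 59 from the *L. megarhynchos* side. The 4-fold rule was met by 103 of 259 rows (39.8%) and towards *L. luscinia* by 44 of them (17%), which included both LARP4 rows and AGO2 XP_005042573.1. The AGO2 and XP_016160800.1 calls did not hold with a pseudocount of 0.1, and none of the 3 held with 1. These comparisons share libraries with those between tissues, so the low *L. megarhynchos* testis value of LARP4 enters both.

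**Figure D4:**
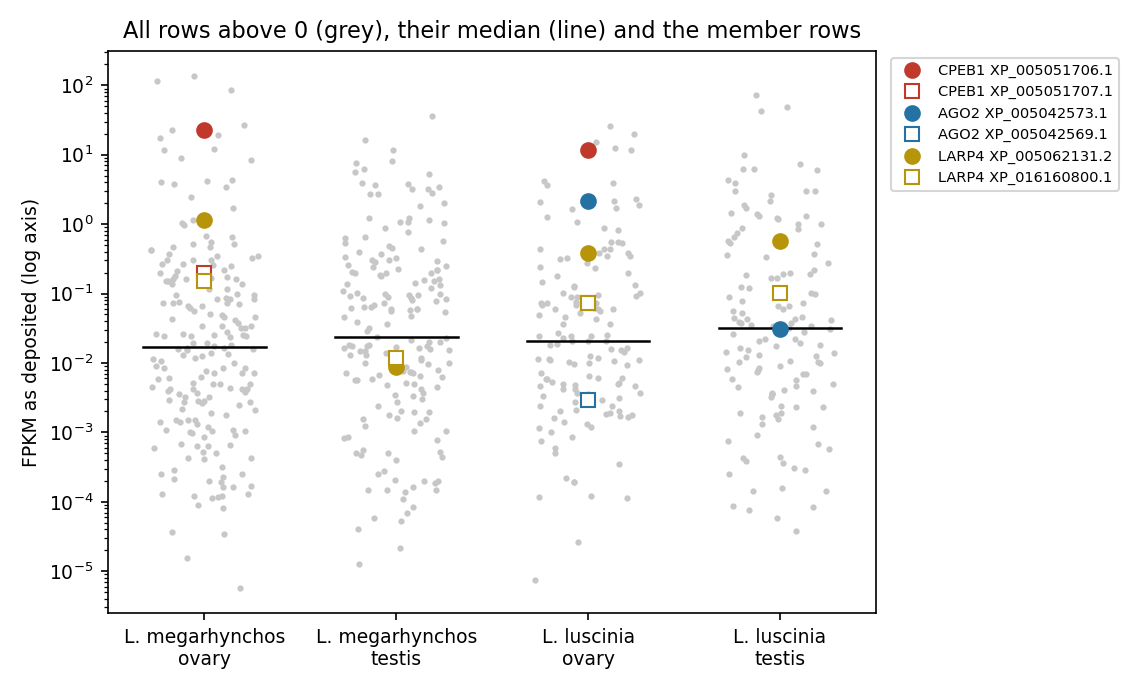
FPKM (vertical log axis) of every row above 0 in each library as grey points, with their median as a black line and the member rows as coloured symbols. CPEB1 XP_005051706.1 lies at rank 5 in both ovaries, and LARP4 moves from above the median in the *L. megarhynchos* ovary to below it in the testis of that species.

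The profiles of the members were compared with those of other rows by the share of a row's summed FPKM found in each library, for the 61 rows with a summed FPKM of 1 or more. The distance was the sum of the absolute differences in share divided by 2, so that 0 marks the same profile and 1 no library in common. Shares and distances used FPKM as deposited, and both depend on how the libraries are scaled. CPEB1 XP_005051706.1 made up 4.54% of the summed FPKM of the *L. megarhynchos* ovary and 9.49% of that of the *L. luscinia* ovary. By deposited FPKM this row had its whole sum in the ovaries, in the reverse order, 66.1% for *L. megarhynchos* and 33.9% for *L. luscinia*. Nearest to it were IGF1R, the receptor of insulin-like growth factors, at a distance of 0.0433 and with 3.82, 0, 2.30 and 0.0729 FPKM, then FBXO11, a subunit of a ubiquitin ligase, at 0.104, and SLC26A9, an anion transporter, at 0.153. AGO2 XP_005042573.1 had 98.6% of its sum in the *L. luscinia* ovary and 1.41% in the testis. Its nearest rows were SCX, a transcription factor of tendon, at 0.0132 and with 12.7 and 0.0108 FPKM in *L. luscinia*, RNF212B, a RING finger protein, at 0.0718, and CHRAC1 at 0.108.

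LARP4 XP_005062131.2 had no row as near. Its profile was 54.7%, 0.414%, 18.2% and 26.7% in the order of libraries above, and the nearest row was POLR2B, the second largest subunit of RNA polymerase II, at 0.230 and with 4.32, 0.161, 0.879 and 0.375 FPKM. IGF1R followed at 0.259 and SLC26A9 at 0.270. With a Euclidean distance on the log2 scale, 1 of these 3 rows remained among the nearest of LARP4, against 2 of 3 for CPEB1 and 3 of 3 for AGO2. Between identifiers of a gene the distance was 0.0694 for CPEB1, 0.0976 for LARP4 and 0.0141 for AGO2. Between genes it was 0.271 from CPEB1 XP_005051706.1 to LARP4 XP_005062131.2 and 0.661 from CPEB1 XP_005051706.1 to AGO2 XP_005042573.1.

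**Figure D5:**
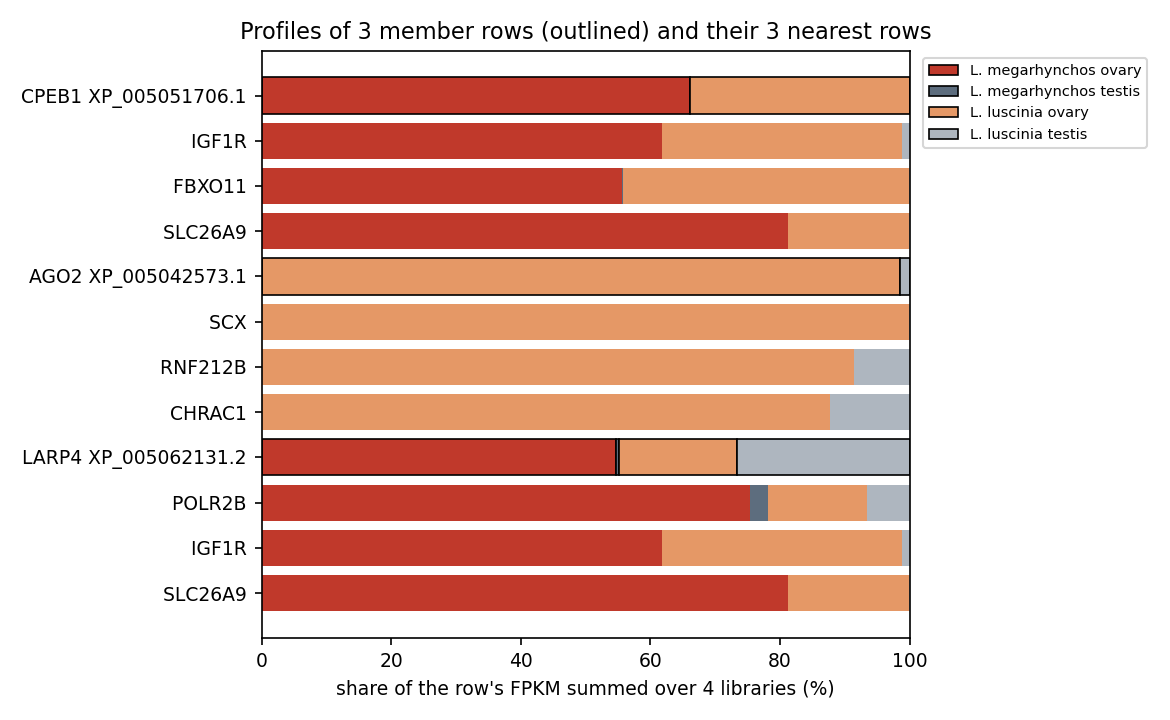
Share of a row's FPKM, summed over the 4 libraries, that was found in each library (horizontal axis, percent) for 3 member rows, outlined, and the 3 rows nearest to each by profile. CPEB1 and its nearest rows are split between the ovaries, AGO2 has 98.6% in the *L. luscinia* ovary, and LARP4 has 26.7% in the *L. luscinia* testis.

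Partners of these genes and other RNA-binding genes were looked up in the table, which held 769 symbols. The share of all annotated genes that have a row was not available to set beside the counts. Lists of the CPEB pathway (45 symbols), the Argonaute pathway (36), La-related and poly(A)-binding proteins (19) and other RNA-binding regulators (43) held 143 symbols in all, of which 11 had a row. Besides the members these were 8 genes in 10 rows. Of them, 2 genes in 4 rows were above 0, against 366 of all 799 rows (45.8%). All 4 were at 0 in both testes, as were 107 of the 366 rows above 0 (29.2%). ELAVL4, a neuronal protein that binds AU-rich elements, was above 0 in 3 rows, at 0.0462, 0.0410 and 0.160 FPKM in the *L. megarhynchos* ovary, and the last was also at 0.0877 FPKM in the *L. luscinia* ovary. ELAVL2 of the same family was at 0.00290 FPKM in the *L. megarhynchos* ovary. MOS, the oocyte kinase whose stored mRNA is a known target of CPEB1 in frogs, had a row that was at 0 in all 4 libraries, as had TDRD5, TNRC6C, PAIP2B, TIAL1 and TIA1.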

How the data were processed

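Total RNA of 1 ovary and 1 testis per species was treated with DNase and made into stranded, oligo dT-enriched mRNA libraries, read as 150 bp single ends. Per the labels and the study's methods, the authors trimmed reads with Trimmomatic 0.39 and ran the aligner STAR 2.7.9a against a joint reference of somatic genome and GRC assembly for each species. Uniquely mapped reads on GRC exons, annotated from flycatcher coding sequences, were deposited by the authors as FPKM, written with decimal commas and with a column for each library. The counting program, the use of strand and the read totals are not given in the sources used here. Nor does the table hold the length of each sequence in each species, so the length scaling between species could not be checked.

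Rows were matched by symbol and kept as deposited (Python 3.11.15, pandas 2.3.3, numpy 2.4.6, scipy 1.17.1, matplotlib 3.10.9). Folds are ratios of FPKM and were not computed against a row listed at 0. Counts across rows used log2(FPKM + 0.01) and a limit of 4-fold, over rows above 0 in at least 1 of the 2 libraries. The pseudocount understates the change of low rows. Whole-read ratios and relative depth within a species were found from the deposited FPKM alone, by a procedure tested on simulated data, with a smaller term of at most 60 reads. Clopper-Pearson intervals at a confidence level of 95% cover counting error only. The named rows were every member and, for members with a summed FPKM of 1 or more, the 3 nearest by profile. The members and gene lists were chosen with earlier results of these data known.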

Additional observations from a re-analysis of the deposited data

Results flagged for a closer look

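As deposited, the LARP4 rows stood in opposite order between tissues in the 2 species, with 1 library on each side, and the difference between species was not tested. In *L. luscinia* the intervals at the fewest reads include a ratio of 1 for both rows. For XP_005062131.2 the counts may be much higher than the fewest reads, which would narrow its interval and might exclude 1. For XP_005062131.2 the ovary minus testis difference of log2 FPKM came to 7.04 for *L. megarhynchos* and to -0.55 for *L. luscinia*. For XP_016160800.1 it was 3.72 and -0.48. Both *L. luscinia* values turned positive when the libraries were rescaled, and the *L. megarhynchos* testis values can rest on as few as 1 and 2 reads.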

How the results depend on the processing

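A pseudocount cannot turn the sign of a difference, and summing the identifiers of a gene turned none. Of 19 member differences, 4 turned with the median over rows above 0 in both libraries as the divisor, 6 with the summed FPKM and 2 with each library's own median row, the last 2 scalings chosen after seeing the data. A difference with a library listed at 0, as for CPEB1 between tissues and AGO2 between species, cannot turn under any rescaling. The differences that could turn were thus fewer than 19, and the counts understate how often a direction depended on scaling. The median over rows above 0 in both libraries turned the *L. luscinia* ovary minus testis difference to 0.49 (LARP4 XP_005062131.2) and 0.56 (XP_016160800.1) and the difference between the ovaries to -0.13 (CPEB1 XP_005051706.1) and -0.026 (LARP4 XP_016160800.1). Scaling to the summed FPKM gave 0.42 and 0.48 for the same LARP4 rows in *L. luscinia*, and -1.07 and -0.58 (CPEB1 XP_005051706.1 and XP_005051707.1) and -0.44 and -0.94 (LARP4 XP_005062131.2 and XP_016160800.1) between the ovaries. The own median gave 0.060 and 0.13 for the LARP4 rows in *L. luscinia*. With pseudocounts of 0.001, 0.1 and 1, rows past 4-fold went from 96 to 153, 50 and 22 between the *L. megarhynchos* tissues, from 87 to 156, 40 and 12 between the ovaries and from 103 to 168, 43 and 11 between the testes. Between the *L. luscinia* tissues they went from 58 to 96 and 13 with pseudocounts of 0.001 and 1. A 2-fold limit gave 93 between the *L. luscinia* tissues and 134 between the ovaries. Rows above 0 in the ovary alone fell from 84 to 18 in *L. megarhynchos* and from 45 to 10 in *L. luscinia* with at least 0.1 FPKM asked of the ovary. A Euclidean distance kept 1 of the 3 rows nearest to LARP4. No paired analysis was possible because each group holds 1 library, and for the same reason no library could be left out.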

Other observations

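Around LARP4 the table held 3 other rows within 30 coding sequences, of which ATF1, a transcription factor, and RNF212B were at 0 in both *L. megarhynchos* libraries and above 0 in both *L. luscinia* libraries, ATF1 at 0.00236 and 0.00693 FPKM and RNF212B at 1.29 and 0.121 FPKM in ovary and testis. LARP4 itself was above 0 in all 4 libraries. CPEB1 had no neighbouring row within 30 coding sequences. The spermatogenic markers listed held 3 rows. DMRT1 was above 0 in both ovaries and neither testis, and SPAG6 was at 0 throughout. SYCP1, a protein of the synaptonemal complex, stood at 0.365 and 0.0110 FPKM in *L. megarhynchos* ovary and testis. In *L. luscinia* ovary and testis it stood at 0.0681 and 0 FPKM. DMRT1 and SYCP1 were thus higher in the ovary, the reverse of what a spermatogenic marker would show, but as GRC copies they do not check the tissue labels.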
